A study of Mus musculus with 4 samples.

Results

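Histone transcripts were read from 67 probes, carrying 47 gene names, among the 41174 non-control probes of a mouse whole-genome array. They were chosen by the name of the gene in the array files: 44 probes of 34 genes had names starting with Hist and are called cluster genes here, and 23 probes of 13 genes had names starting with H1f, H2af or H3f and are called replacement variants. The study used 4 Agilent 2-colour arrays of B16-F10, a cultured mouse melanoma line. On each array the Cy5 channel held RNA of cells given a goat polyclonal antibody against mouse TIM3 (an immune checkpoint receptor), and the Cy3 channel held RNA of cells of the same passage given unspecific goat IgG, both at 15 ug/ml for 2 h in culture. Replicates 1, 2, 3 and 4 came from passages 14, 16, 18 and 19 of this single line. The labels call the antibody an agonist for replicates 1, 2 and 4. For replicate 3 they name it only as the source of the Cy5 sample, with no protocol beside it and without that word. The antibody dose and time of replicate 3 are therefore taken to be the same as on the other arrays. The antibody sample was always in Cy5, so effects of dye and antibody cannot be told apart. Log2 ratios are Cy5 over Cy3, positive where the antibody sample was the brighter, and a probe is said to have risen or fallen only where limma gave an adjusted p under 0.05 over all 26567 tested probes.

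Histones are the proteins around which DNA is wound, with H2A, H2B, H3 and H4 forming the core particle and H1 binding the linker. Cluster genes lie side by side in the genome, are transcribed mainly in S phase, and give mRNAs that usually end in a conserved stem-loop in place of a poly(A) tail. Replacement variants are single genes with polyadenylated mRNAs, are made throughout the cell cycle and exchange into chromatin outside replication. Primers that read poly(A) tails copy the second kind of mRNA more readily, and how the RNA was primed for labelling is not given in the sources used here.

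The scanner flagged 21162 to 22112 probes per array as well above background in Cy3, and 25739 to 28424 in Cy5. Of 12 melanocyte markers, 11 passed this flag throughout, in both channels of every array, against 6 of 12 leukocyte markers and 2 of 8 fibroblast and endothelial markers; Cd3g, Itgam, Adgre1, Dcn and Pecam1 were nowhere above it. The arrays hold bulk RNA, so fewer cells of a kind and less RNA per cell cannot be told apart.

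Many cluster genes encode nearly the same protein, and their probes can be nearly the same sequence, which bears on how far a value belongs to the gene named. Of the 44 cluster probes, 14 shared at least 20 consecutive bases with a probe of another gene (31.8%), as did 1 of 23 replacement probes and 607 of all 41174 (1.47%). The probes below show this for H2B, H4 and H2A. They are printed 5′ to 3′ with the mm7 positions of the files, and capitals mark bases that differ from the probe printed first in each group. Positions of substitutions are counted from 1 at the 5′ end of that probe.

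The H2B probes of Hist1h2bk (now H2bc12) and Hist1h2bm (H2bc14) differed by G53A and A54G. The probe of Hist3h2bb (H2bu1-ps, a transcribed pseudogene in RefSeq) started 2 bases later and differed from that of Hist1h2bk by G29C, C32T and G53C.
Hist1h2bk, chr13:21402048-21402107, + strand: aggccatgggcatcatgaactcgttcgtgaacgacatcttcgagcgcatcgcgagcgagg
Hist1h2bm, chr13:21088259-21088318, + strand: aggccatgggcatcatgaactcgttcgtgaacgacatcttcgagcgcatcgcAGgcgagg
Hist3h2bb, chr11:59035740-59035799, - strand: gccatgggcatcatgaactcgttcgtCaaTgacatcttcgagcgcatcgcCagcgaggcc

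The H4 probes of Hist1h4d (H4c4) and Hist1h4f (H4c6) were identical over the 50 bases in which they overlap, and that of Hist2h4 (H4c14) differed from the first by G28C and C58T over 39 bases.
Hist1h4d, chr13:22947598-22947657, + strand: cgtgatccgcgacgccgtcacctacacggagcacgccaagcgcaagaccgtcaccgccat
Hist1h4f, chr13:22917373-22917432, - strand: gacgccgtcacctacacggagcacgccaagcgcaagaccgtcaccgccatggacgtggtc
Hist2h4, chr3:96136980-96137039, - strand: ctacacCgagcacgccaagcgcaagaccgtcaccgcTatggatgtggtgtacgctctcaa

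The H2A probes of Hist1h2af (H2ac10) and Hist1h2aa (H2ac1) had 47 identical bases of 60. That of H2afj (H2aj), a replacement variant, had 43 identical bases of the 52 that overlap.
Hist1h2af, chr13:22900228-22900287, + strand: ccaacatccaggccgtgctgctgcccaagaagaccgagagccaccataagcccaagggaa
Hist1h2aa, chr13:23300592-23300651, + strand: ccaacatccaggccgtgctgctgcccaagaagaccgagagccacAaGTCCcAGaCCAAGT
H2afj, chr6:136833216-136833275, + strand: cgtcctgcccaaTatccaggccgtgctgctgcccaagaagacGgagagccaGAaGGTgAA

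Some probes hold letters of the stem-loop itself. The probe of Hist1h3a (H3c1), an H3 gene, held a single inverted repeat of 6 bases around 4, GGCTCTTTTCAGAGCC. Searched on both strands, these 16 letters were in 1 of all 41174 probes (0.0024%). The probe of Hist1h2ab (H2ac4) ended with the first 11 of them, GGCTCTTTTCA, which 4 of all probes held (0.0097%), and that of Hist1h2ae (H2ac8) began with the last 12, CTTTTCAGAGCC, which 2 of all probes held (0.0049%). The searches overlap, so Hist1h3a counts in each. Capitals mark the matched letters in the windows below; a match is a description of the probe.
Hist1h3a: accaaaGGCTCTTTTCAGAGCCaca
Hist1h2ab: caaaacaaaGGCTCTTTTCA
Hist1h2ae: CTTTTCAGAGCCattcactt

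Signal from both classes was widespread in these cells. On every array and in both channels, 32 of 44 cluster probes and 19 of 23 replacement probes stood well above background, against 20602 of all 41174. The Cy3 counts were 32 and 19 on every array. In Cy5 the cluster count was 35, 38, 39 and 37 on replicates 1 to 4, and the replacement count was 21 on each. The probes above background in Cy5 on all 4 arrays and in Cy3 on none were 3 cluster and 2 replacement probes, among 2639 of all probes, and 5 cluster and 2 replacement probes were below it in both channels on every array. No histone probe was saturated.

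The replacement probes were on the whole the brighter. Their median intensity percentile among all probes was 88.1, from 16.6 to 99.8, against 75.3 for cluster probes, from 3.10 to 98.8. Signal also depends on the probe, so these percentiles describe probes and do not order the genes. The 5 probes of H3f3a and H3f3b lay between 99.1 and 99.5. The 5 cluster genes with the brightest probes are called the brightest cluster genes here, which ranks probes and not expression. They were Hist2h3c1 (H3c14) and Hist1h3d (H3c4), which encode H3, and Hist1h2af, Hist1h2aa and Hist2h2ac (H2ac20), which encode H2A. The bright probes of Hist1h2af and Hist1h2aa share 44 consecutive bases, and that of Hist2h2ac shares 51 with a probe of another name. The 14 cluster probes sharing 20 bases all stood well above background throughout, with a median percentile of 86.2 and a median GC content of 60%. Of the other 30 cluster probes 18 were, with a median percentile of 61.7 and a median GC content of 45%. Whether one probe collects signal from several near-identical mRNAs was not tested.

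**Figure D1:**
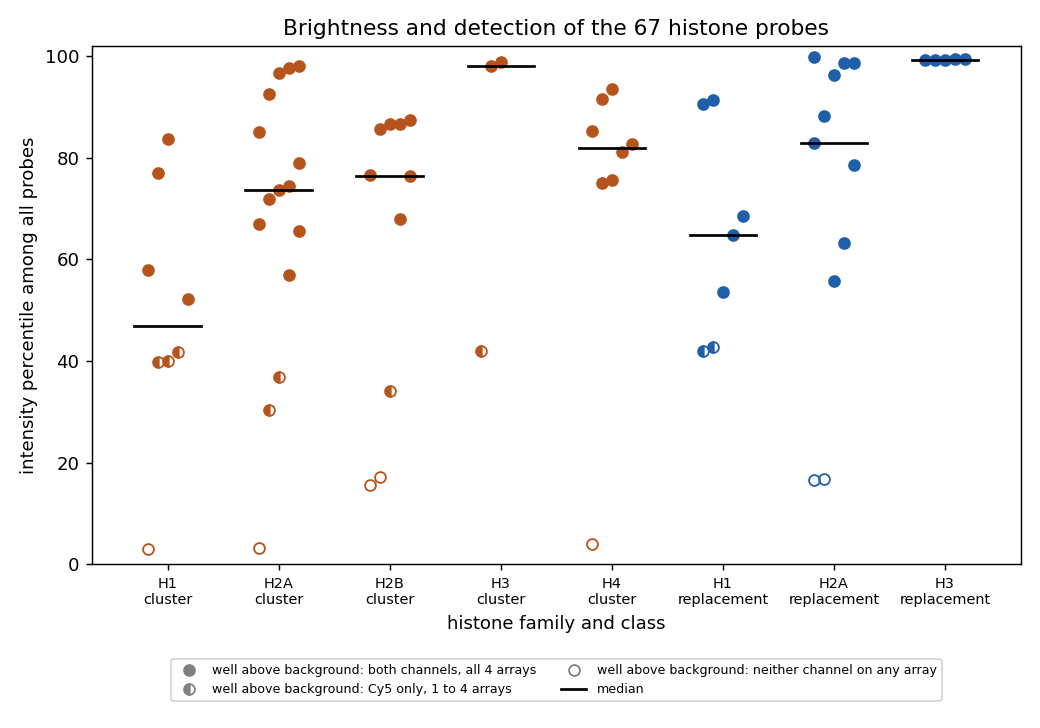
Intensity percentile of each of the 67 histone probes among all 41174 probes, by family and class, with the fill showing in which channels the probe was well above background and the bar the median. The 5 replacement H3 probes lie between 99.1 and 99.5, and the probes below background in both channels lie at or below 17.2.

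After 2 h of antibody, 6 of the 37 tested cluster probes rose, 0 fell and 31 did not pass, while 9 of the 21 tested replacement probes rose, 2 fell and 10 did not pass. Among all 26567 tested probes 27.8% passed, 14.2% higher and 13.6% lower. The cluster share (16.2%) was below the 27.8%, but it holds rises only and was near the 14.2%. The replacement share (52.4%) was above the background, and its 9 rises hold 3 probes of H3f3a and 2 of H2afy. Of the 6 cluster probes, 2 H1 probes were tested only through Cy5, their Cy3 signal being under the flag, and so count as no support for a rise. With both channels required on all 4 arrays, 6 of 32 cluster probes rose (18.8%, the other 4 with Hist1h2bm and Hist3h2bb). Of 19 such replacement probes 9 rose and 2 fell. Among all such probes 33.3% passed, 16.3% higher and 17% lower. Counted at an unadjusted p under 0.05 by limma, 2 cluster probes were lower. The ratios were small: the median was 0.03 for cluster probes, 0.04 for replacement probes and 0.01 for all, and the widest mean ratios were 0.54 and -0.35.

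Brightness moved with these counts. The 588 tested probes with a mean log2 intensity of at least 15 had a median ratio of 0.15, and 56.6% of them rose against 4.93% that fell. Among them are 8 replacement probes and 1 cluster probe. Set against all tested probes within 0.5 log2 units of their own intensity, the H3f3a probes had ratios at percentiles 89.5 to 98.4, H2afv at 80.0, the H3f3b probe that rose at 69.6 and the other at 31.4, and H2afz at 62.1. Of the melanocyte markers, each given by its brightest tested probe, 8 of 12 were higher and 0 lower. Their median was 0.19 (0.11 in the deposited processed signals), with the largest ratios in Mlana (0.58) and Pmel (0.51). Among dimmer probes of these markers, that of Sox10 (-0.30) passed as lower, and those of Mitf (0.15) and Dct (0.62) as higher. The leukocyte list had 1 of 8 tested genes higher and the fibroblast and endothelial list 1 of 5. Their part in the histone ratios was not tested. With the deposited processed signals, 2 replacement probes rose and 2 fell, and 4 cluster probes rose, with 19.8% of all probes passing (10.8% higher, 8.98% lower). Each array was also freed of its trends with intensity and probe bases. There, 6 replacement probes rose and 3 fell while 16 cluster probes rose and 0 fell, with 26.3% of all passing (13.1% higher, 13.2% lower). By limma at an adjusted p under 0.05, 6 of those 16 were H4 and 5 were H2B probes. Of the 16, 9 were among the 14 cluster probes that share at least 20 bases with a probe of another gene. Some of these are near copies of each other, so the 16 are not independent readings of as many genes. The 16 also hold the Hist1h1d and Hist1h1t probes tested only through Cy5. The 4 cluster probes of the deposited processed signals hold that of Hist1h1t. These H1 probes count as no support for a rise.

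The classes did not keep an order over the arrays. The median ratio of cluster probes was 0.06, 0.01, -0.02 and -0.01 on replicates 1 to 4, and that of replacement probes 0.04, 0.10, 0.08 and 0.05. Cluster probes were the higher on replicate 1 and the lower on the other 3. No test was made of these medians.

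**Figure D2:**
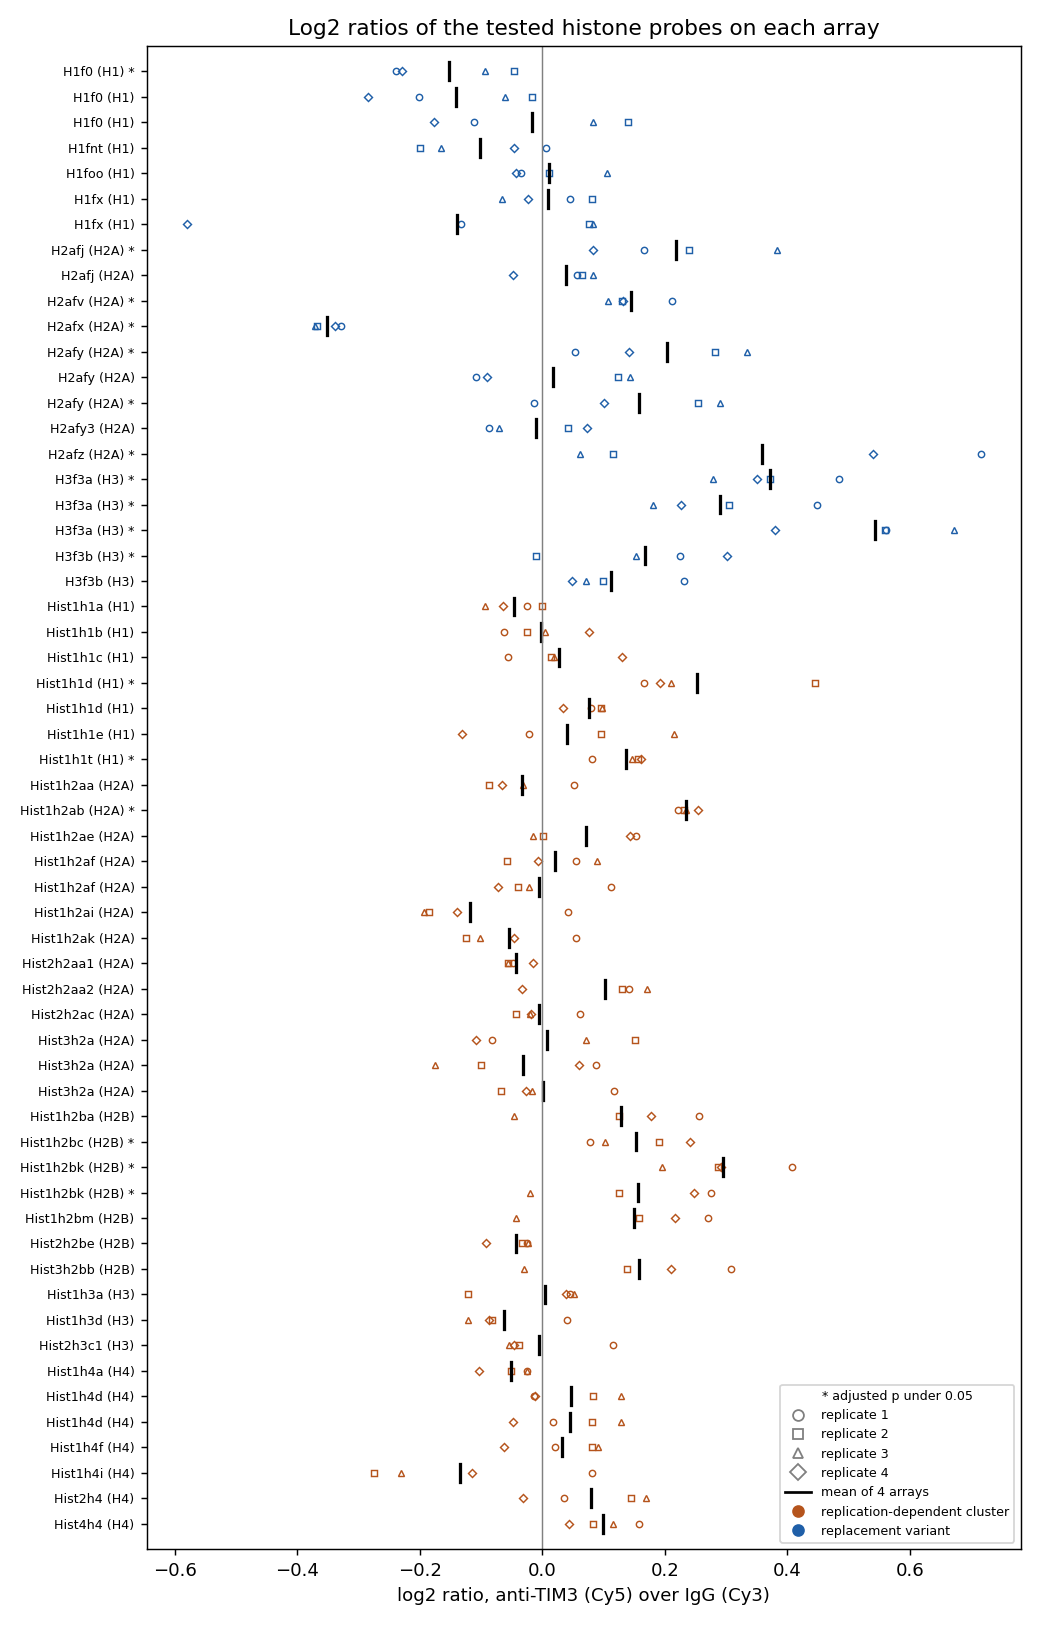
Log2 ratio of each of the 58 tested histone probes on each of the 4 arrays (symbols), with the mean as a black bar and an asterisk where the adjusted p was under 0.05. All 5 replacement H3 probes have means from 0.11 to 0.54, the H2afx symbols lie together between -0.37 and -0.33, and the H4 means stay within -0.13 to 0.10.

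**Figure D3:**
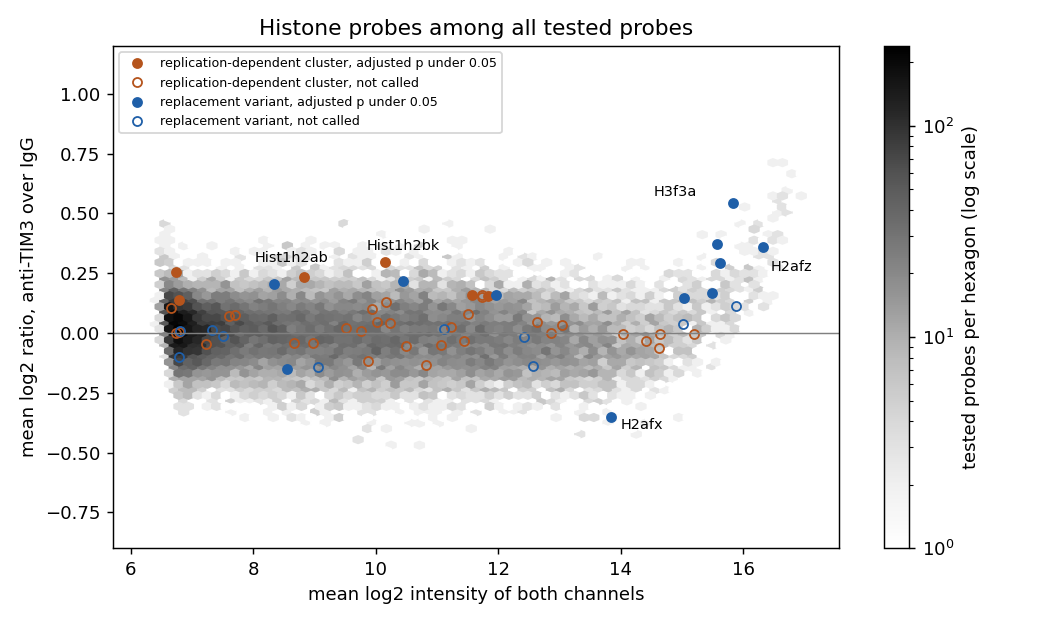
Mean log2 ratio against mean log2 intensity for the 58 tested histone probes, over the density of all 26567 tested probes in grey on a log scale. The grey cloud turns upward at 15 and above, where its median is 0.15 and where H3f3a, H3f3b and H2afz lie; H2afx lies at the lower edge of the cloud at -0.35 (0.12 under median centring).

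Among the replacement variants, the highest ratio was that of H3f3a. H3f3a and H3f3b encode the same H3 variant, which is laid down at active genes and regulatory elements outside replication. The H3f3a probe with the largest ratio (chr1:180782295-180782354) gave 0.56, 0.56, 0.67 and 0.38 on replicates 1 to 4, a mean of 0.54 ± 0.12 (SD, n = 4; limma adjusted p = 0.00035). Its other probes gave 0.49, 0.37, 0.28 and 0.35 (mean 0.37 ± 0.09, adjusted p = 0.00080 by limma) and 0.45, 0.31, 0.18 and 0.23 (mean 0.29 ± 0.12, adjusted p = 0.0034). Every value was above 0, and all the probes rose under each omission of a replicate. In the deposited processed signals the means were 0.29, 0.14 and 0.15, and of these the first passed with an adjusted p of 0.033 by limma. With trends removed they were 0.33, 0.29 and 0.22, and all passed. An H3f3b probe (chr11:116132418-116132477) gave 0.22, -0.01, 0.15 and 0.30, a mean of 0.17 ± 0.13 with an adjusted p of 0.036 by limma. It did not pass without replicate 1, 3 or 4, and its mean was -0.04 in the deposited processed signals. The other H3f3b probe had a mean of 0.11 ± 0.08 (-0.096 in the deposited processed signals) and did not pass (adjusted p = 0.063 by limma).

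H2afz (H2az1) and H2afv (H2az2) encode H2A.Z, a variant found beside transcription start sites. The tested H2afz probe (chr3:137674646-137674705) gave 0.72, 0.12, 0.06 and 0.54, a mean of 0.36 ± 0.32 (SD, n = 4; limma adjusted p = 0.026). Replicates 1 and 4 were high and replicates 2 and 3 near 0, and the call was lost without replicate 1 (adjusted p = 0.10 by limma) or replicate 4 (0.098). It was lost too in the deposited processed signals (mean 0.05) and with trends removed (0.18). Its other probe is listed on another chromosome than the gene and was not above background. The H2afv probe (chr11:6380173-6380232) gave 0.21, 0.13, 0.11 and 0.13, a mean of 0.15 ± 0.05 (adjusted p = 0.016 by limma), with every array above 0. Its mean was 0.0076 in the deposited processed signals and 0.057 with trends removed, and it passed in neither.

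H2afx (H2ax) had the lowest ratio and the tightest values of the replacement variants. It encodes H2A.X, the variant phosphorylated around DNA breaks, whose mRNA is known to exist both with a stem-loop end and with a poly(A) tail. Its probe (chr9:44270295-44270354) gave -0.33, -0.37, -0.37 and -0.34, all 4 well below 0. H2afx fell, with a mean of -0.35 ± 0.02 (SD, n = 4; limma adjusted p = 0.00045), but its mean was 0.12 when arrays were centred on their median in place of loess. That centring moved the median of all tested probes to 0.15, so H2afx was below it there as well. Among 1172 tested probes within 0.5 log2 units of its intensity, its ratio was at percentile 1.6, and at 2.0 after median centring. It also fell in the deposited processed signals (-0.39, adjusted p = 0.013 by limma), with trends removed (-0.35), with the channels fitted separately (adjusted p = 0.029, where 2.18% of all probes passed), and without any single replicate.

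H2afj encodes H2A.J, a variant known to accumulate in senescent cells. Its probe outside the shared stretch (chr6:136834454-136834513) gave 0.17, 0.24, 0.38 and 0.08, a mean of 0.22 ± 0.13 (limma adjusted p = 0.013), and rose in the deposited processed signals as well (0.24, adjusted p = 0.047). The H2afj probe that shares bases with cluster H2A probes had a mean of 0.04 ± 0.06 and did not pass. H2afy (Macroh2a1) encodes macroH2A, an H2A with a large extra domain that is enriched on the inactive X chromosome. One H2afy probe (chr13:55177569-55177628) gave 0.05, 0.28, 0.33 and 0.14, a mean of 0.20 ± 0.13 (limma adjusted p = 0.017), and another gave -0.01, 0.25, 0.29 and 0.10, a mean of 0.16 ± 0.14 (adjusted p = 0.0499 by limma). Replicates 2 and 3 were the high arrays in both. The first call was lost without replicate 2 or 3, the second without 2, 3 or 4, and both in the deposited processed signals; the remaining probe had a mean of 0.02 ± 0.13. H2afy3 (Macroh2a3, a pseudogene in RefSeq) had a mean of -0.01 ± 0.08 and did not pass, and H2afy2 was not above background.

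The replacement linker histones had ratios at or below 0.01. H1f0 encodes the H1 of quiescent and differentiated cells. One probe (chr15:79112458-79112516) gave -0.24, -0.05, -0.09 and -0.23 and fell, with a mean of -0.15 ± 0.10 (SD, n = 4; limma adjusted p = 0.029), and it fell in the deposited processed signals too (-0.21). The call was lost without replicate 1 (adjusted p = 0.096 by limma) or replicate 4 (0.11). A second H1f0 probe overlapping it had a mean of -0.14 ± 0.12 (adjusted p = 0.056 by limma), and the third -0.02 ± 0.15; neither passed. H1fnt (H1f7), a linker histone of the testis, had a mean of -0.10 ± 0.10, H1foo (H1f8), the oocyte form, 0.01 ± 0.07, and the H1fx (H1f10) probes 0.01 ± 0.07 and -0.14 ± 0.31. None of these 4 passed. H1fnt and the first H1fx probe were well above background in Cy5 on all arrays and in Cy3 on none.

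Among cluster genes, 3 of 7 tested H2B probes rose, with a median ratio of 0.15, against 0 of 7 H4 probes, 0 of 3 H3 probes and 1 of 13 H2A probes; the 2 of 7 H1 probes that passed are those tested through Cy5 alone. The order of the families by number of rises depended on the processing: with trends removed, 6 of 7 H4 probes rose (median 0.17) and 5 of 7 H2B probes (median 0.26). By median, H2B was the highest family with and without that step. By limma at an unadjusted p under 0.05, 12 of the 37 cluster probes were higher, among them H1 probes tested only through Cy5. The medians were 0.05 for H4, -0.01 for H3, -0.00 for H2A and 0.04 for H1. The number of cluster probes rising was 3 without replicate 2, against 6 on all arrays, and 2 fell without replicate 1. A fit on fewer arrays can change what passes among all probes, and that share is not given here. These counts are therefore no result about histones.

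Hist1h2bk, on chromosome 13, rose by both its probes. The one outside the shared stretch (chr13:21401982-21402041) gave 0.41, 0.29, 0.20 and 0.29, a mean of 0.30 ± 0.09 (SD, n = 4; limma adjusted p = 0.0019), and rose in the deposited processed signals (0.33, adjusted p = 0.027) and without any single replicate. The shared probe printed above gave 0.28, 0.12, -0.02 and 0.25, a mean of 0.16 ± 0.14 (adjusted p = 0.047 by limma), and was lost without replicate 1, 2 or 4 and in the deposited processed signals. Its near copies lay just outside the threshold: Hist1h2bm had a mean of 0.15 ± 0.14 (adjusted p = 0.055 by limma) and Hist3h2bb 0.16 ± 0.14 (0.052). On every array the 3 probes were within 0.023 to 0.039 of each other, while their mean ran from -0.03 on replicate 3 to 0.28 on replicate 1. Nearly all of their bases are the same, so their values are not independent readings of 3 genes. Hist1h2bc (H2bc4; chr13:23058152-23058211), also H2B, gave 0.08, 0.19, 0.10 and 0.24, a mean of 0.15 ± 0.08 (adjusted p = 0.020 by limma), and rose in the deposited processed signals (0.16), but not without replicate 2 or 4.

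**Figure D4:**
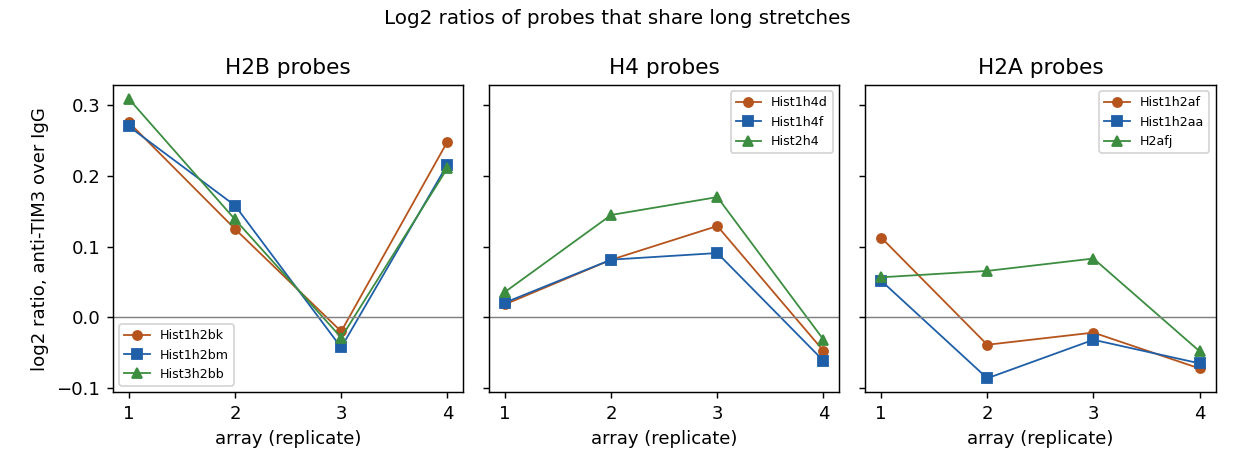
Log2 ratio on each array (replicates 1 to 4) of the H2B, H4 and H2A probes whose sequences are printed in the text. The H2B lines lie within 0.039 of each other on every array and the H4 lines within 0.079, whereas the H2A lines are up to 0.15 apart.

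With loess alone the other sharing groups were flatter. The H4 probes of Hist1h4d, Hist1h4f and Hist2h4 were within 0.018 to 0.079 of each other on an array, with a mean from -0.05 on replicate 4 to 0.13 on replicate 3, and none passed. With trends removed the mean ratios of these printed probes were 0.18, 0.17 and 0.18, and all passed (limma adjusted p = 0.0062, 0.0075 and 0.010). The H2A probes of Hist1h2af, Hist1h2aa and H2afj were 0.024 to 0.15 apart, as wide as the range of their mean over the arrays, -0.06 to 0.07.

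Hist1h2ab, an H2A gene whose probe (chr13:23117325-23117384) ends within the stem-loop letters, had the smallest spread of the cluster probes that rose. It gave 0.22, 0.23, 0.23 and 0.25, a mean of 0.24 ± 0.01 (SD, n = 4; limma adjusted p = 0.0019), and rose in the deposited processed signals (0.29, adjusted p = 0.022), with trends removed and without any single replicate. Hist1h3a, whose probe holds all 16 letters, had a mean of 0.00 ± 0.08, and Hist1h2ae, whose probe holds the last 12, had 0.07 ± 0.09; neither passed.

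The H1 probes that passed were dim, well above background in Cy5 on all arrays and in Cy3 on none. They entered the test through the channel in which they were high, so their ratios, folds and p are a description and support no rise. Of all 5345 probes that entered through Cy5 alone, 620 were higher and 262 lower. Hist1h1d (H1f3, chr13:22923327-22923386), a somatic linker histone, gave 0.17, 0.45, 0.21 and 0.19, a mean of 0.25 ± 0.13 (limma adjusted p = 0.0070), with a fold of 1.18. Its mean was 0.88 in the deposited processed signals, where it did not pass, and its brighter probe had a mean of 0.08 ± 0.03 (adjusted p = 0.11 by limma). Hist1h1t (H1f6, chr13:23062276-23062335), the linker histone of the testis, gave 0.08, 0.16, 0.15 and 0.16, a mean of 0.14 ± 0.04 (adjusted p = 0.019 by limma), with a fold of 1.099. It was lost without replicate 2, 3 or 4. The folds set the Cy5 mean against the higher, on each array, of the Cy3 signal and the lowest signal well above background. For Hist1h1t that was the Cy3 signal throughout, so its fold is that of its mean ratio. For Hist1h1d it moved the Cy3 mean only from 6.61 to 6.63. The folds are therefore not lower bounds, and they are open to dye bias.

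None of the 5 brightest cluster genes passed. Their means were -0.01 ± 0.08 for Hist2h3c1, -0.01 ± 0.08 for Hist1h2af, -0.06 ± 0.07 for Hist1h3d, -0.03 ± 0.06 for Hist1h2aa and -0.00 ± 0.05 for Hist2h2ac. No histone gene had tested probes of opposite sign of which any passed. The 3 probes of Hist3h2a (H2aw), 1 of them listed on the strand opposite to the other 2, had means from -0.03 to 0.01.

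**Figure D5:**
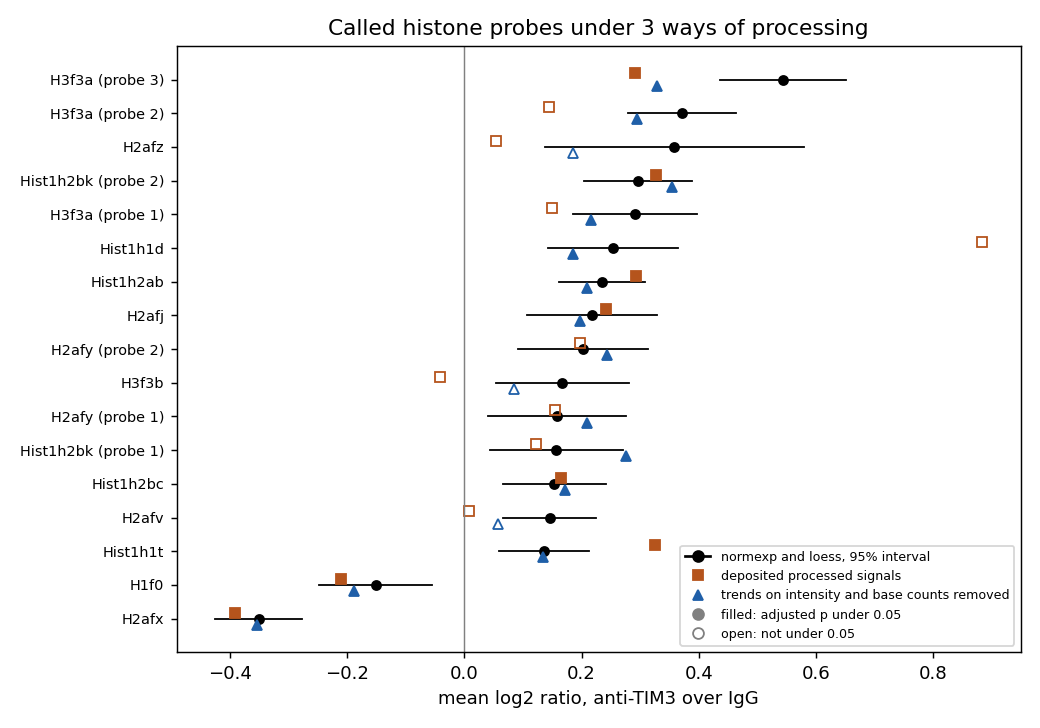
Mean log2 ratio of the 17 histone probes that passed, with loess and its 95% interval (black), in the deposited processed signals (squares) and with trends removed (triangles), filled where the adjusted p was under 0.05; the Hist1h1d and Hist1h1t probes were tested through Cy5 alone. In the deposited signals 8 of the 17 passed in the same direction and H3f3b is at -0.04; with trends removed 14 passed.

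Among the genes that make and load histones, some rose and some fell. Each gene is given by its brightest tested probe, and of 17805 genes so represented 14.8% were higher and 12.8% lower, with a median ratio of 0.01. That share is not given for fits without a replicate, so the counts of those fits describe the lists only. Of 19 genes for histone mRNA processing and transcription, 2 rose, 5 fell and 12 did not pass, with a median of -0.03; 1 rose without replicate 1 or 4, 2 fell without replicate 2 or 4 and 3 without replicate 3. Sympk, a scaffold of the 3′ end cleavage machinery, had a mean of -0.32 ± 0.15 (n = 4; limma adjusted p = 0.0044). Cdk2, the S-phase kinase, had -0.27 ± 0.14 over the 3 arrays left after an outlier spot on replicate 4 was dropped (limma adjusted p = 0.012). In the deposited processed signals Sympk (-0.24) did not pass, while Cdk2 (-0.30) did. Npat, the coactivator of cluster histone genes, had a mean of 0.27 ± 0.22 (adjusted p = 0.024 by limma). It lost its call without replicate 1 or 4 and in the deposited processed signals (0.25). The other Npat probe, at 0.09, did not pass. The other Cdk2 probe, at -0.16, fell too. E2f1 gave 0.22 ± 0.11, while its dimmer probe had a mean of -0.28 and passed as well.

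Of 26 tested histone chaperones and remodellers 4 rose, 5 fell and 17 did not pass, with a median of -0.04; 2 rose without replicate 2, and 3 fell without replicate 2 or 4. Atrx, which with a partner places the H3 variant in heterochromatin, had a mean of -0.25 ± 0.04 (limma adjusted p = 0.0020), but its other probe, at -0.02, did not pass. Hjurp, the chaperone of the centromeric H3, had -0.23 ± 0.11 (adjusted p = 0.0076 by limma), and its other 4 tested probes ran from -0.21 to 0.08, of which 1 passed as lower. Npm1, a nucleolar chaperone, had 0.22 ± 0.12, but -0.07 in the deposited processed signals, and its other probe, at 0.08, did not pass. Nap1l4, which carries H2A and H2B, had 0.21 ± 0.05 while its other probes, at -0.36 and -0.33, passed as well. Of 20 S-phase genes 4 rose, 3 fell and 13 did not pass, with a median of -0.04; 2 rose without replicate 3 or 4, and by limma 0 fell without replicate 4 (4 at an unadjusted p under 0.05). Pcna, the sliding clamp of DNA replication, gave 0.45, 0.39, 0.37 and 0.41, a mean of 0.41 ± 0.03 (limma adjusted p = 0.00028), at the brightness where most probes rose. Mcm4, of the replicative helicase, had 0.18 ± 0.05, also at that brightness. It passed neither in the deposited processed signals (0.12) nor with trends removed (0.08). Its partners Cdc45 and Gins2 had -0.15 ± 0.13 and -0.15 ± 0.05. Cdc45 lost its call without replicate 1, 2 or 4 and in the deposited processed signals. Gins2 lost its call without replicate 4 and with trends removed. Under median centring the means of Sympk, Hjurp, Cdc45 and Gins2 were 0.11, 0.10, 0.14 and 0.12, all below the 0.15 of all probes.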

How the data were processed

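The deposited files give the linear intensity of each spot in both channels. The authors' software was Agilent Feature Extraction, version 9.5.1.1 per the file headers and 9 per the submitters' processing notes. A deposited value table gives log10 of Cy5 over Cy3, and for all 45018 features it equals the scanner's own ratio within 1e-06. The authors' processed signals, from which these ratios come, are an alternative here.

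Mean signals were background-corrected by normexp (offset 50) with the median local background and normalised by loess within each array with limma 3.58.1 in R 4.3.3. Outlier spots were left out and spots of a probe averaged. A probe was tested if Cy5 or Cy3 was well above background on 3 or more of the 4 arrays, and its mean was set against a log2 ratio of 0 (lmFit, eBayes, two-sided, Benjamini-Hochberg over 26567 probes). Adjusted p-values are from this limma fit and measure only the spread between 4 passages of a line; the number of arrays limits the precision. All arrays lay on a single slide and scan.

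Current symbols came from a RefSeq table of assembly GRCm38.p6, by accession for 54 histone probes and by synonym for 13. Coordinates are those of the files (annotation build mm7), which do not give exon or UTR. Probes sharing at least 20 bases were compared on the same strand. The text names all replacement genes with a tested probe, up to 10 cluster genes that passed with the largest ratios, the 5 brightest cluster genes, and up to 4 genes that passed per other list; Hist1h2bm, Hist3h2bb, Hist1h4d, Hist1h4f, Hist2h4, Hist3h2a, Hist1h2ae and Hist1h3a were added for their sequences or strand after their values were seen. The members and lists were chosen with earlier results of these data known.

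The fit was checked on simulated data with known changes over 26567 probes: it called 47.8% of the 67 shifted by 0.25, 89.6% of the 67 shifted by 0.5 and 100% of the 66 shifted by 1, and made 4 false calls. The noise was independent between probes, and no dye bias or trend with intensity was simulated. Far fewer probes were shifted than passed in the data. These rates check the code and do not carry over to the real fit. Alternatives covered the deposited signals, an offset of 10, median centring, filters, outlier spots, trends on intensity and base counts, separate channels and each replicate left out.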

Additional observations from a re-analysis of the deposited data

Results flagged for a closer look

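Of 58 tested histone probes, 4 had an array whose log2 ratio stood apart from the other 3 by Dixon's test at the 95% level, which flags about 1 in 20 groups by chance. Hist1h1d gave 0.45 on replicate 2, against 0.17 to 0.21 on the others. Hist2h2be (H2bc21), an H2B gene, gave -0.091 on replicate 4, against -0.03 to -0.02. Hist2h3c1 gave 0.12 on replicate 1, against -0.05 to -0.04. Hist1h3a gave -0.12 on replicate 2, against 0.04 to 0.05.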

How the results depend on the processing

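Of the 17 histone probes that passed, 8 also passed in the same direction in the deposited signals, 13 with an offset of 10, 15 without a filter, 16 with outlier spots kept, 14 with trends removed, and 10 to 13 without a replicate. With both channels required on all 4 arrays, 15 were tested and all passed. Fitting the channels separately, with no replicate block (the pairing within an array ignored), 4 passed. By limma after median centring 0 of all probes passed (1006 at an unadjusted p under 0.05, of which 2 were cluster and 7 replacement probes). Means changed sign for H3f3b (-0.041) and Npm1 (-0.070) in the deposited signals. After median centring those of H2afx (0.12), Sympk (0.11), Hjurp (0.10), Gins2 (0.12) and Cdc45 (0.14) did, and the cause was not tested. The 17 include the Hist1h1d and Hist1h1t probes tested through Cy5 alone, which support no rise here or in the counts below. For an offset of 10, no filter, outlier spots kept or fewer arrays, the share of all probes passing is not given. Counts in those fits, here and below, are therefore no result about these genes.

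Cluster probes called higher numbered 0 after median centring and 0 without the replicate block (2 at an unadjusted p under 0.05 in either), 16 with trends removed and 3 to 8 without a replicate; called lower, 0 to 2 without a replicate. Their median ratio was 0.30 after median centring and 0.072 with trends removed. Replacement probes called higher numbered 2 in the deposited signals, 0 after median centring, 3 without the replicate block and 6 to 7 without a replicate; called lower, 0 after median centring, 1 without the block and 1 to 3 without a replicate. Their median ratio was 0.00018 in the deposited signals, 0.35 after median centring, 0.11 with both channels required and 0.030 to 0.068 without a replicate, and their median intensity percentile, 87.9 over arrays, was 89.2 in the deposited signals.

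For histone mRNA processing, genes called higher numbered 1 in the deposited signals, 1 with an offset of 10, 0 after median centring, 0 without the replicate block and 1 to 2 without a replicate. Those called lower numbered 3 in the deposited signals, 3 with an offset of 10, 3 with no filter, 3 with trends removed, 0 after median centring, 1 without the block and 2 to 5 without a replicate. For chaperones, those called higher numbered 1 in the deposited signals, 2 with an offset of 10, 0 after median centring, 0 without the block and 2 to 4 without a replicate. Those called lower numbered 3 in the deposited signals, 0 after median centring, 0 without the block and 3 to 6 without a replicate. For S-phase genes, those called higher numbered 1 in the deposited signals, 2 with an offset of 10, 2 with trends removed, 0 after median centring, 1 without the block and 2 to 4 without a replicate. Those called lower numbered 1 with an offset of 10, 1 with no filter, 5 with trends removed, 0 after median centring, 0 without the block and 0 to 2 without a replicate. By the flag for signal significantly above background, the median count over arrays was 38 cluster and 21 replacement probes in Cy3, and 40 and 21 in Cy5.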

Other observations

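Promoter sequences from RefSeq (build GRCm38.p6, 250 bases before to 50 after the start site) were found for 29 of 34 cluster genes and 11 of 13 replacement genes, among 27025 genes. The octamer ATTTGCAT, known as the binding site of Oct1 in H2B promoters, was searched on both strands. It was in 10 of the 29 cluster promoters, 4 of them among the 5 H2B promoters, in 1 of the 11 replacement promoters and in 1.97% of all. TATAAA was in 19 cluster promoters, 1 replacement promoter and 15.7% of all. CCAAT was in 26, 7 and 41.1%, and the GC box GGGCGG in 15, 7 and 38.2%. A match describes these letters only and was not tested against the ratios.

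The 120 bases before the start site are shown for both H2B genes whose near-identical probes lie on chromosome 13, with CCAAT and octamer matches on either strand in capitals. The probes of these genes, not the promoters, were measured.
H2bc12 (Hist1h2bk), chr13:22035701-22035820, + strand: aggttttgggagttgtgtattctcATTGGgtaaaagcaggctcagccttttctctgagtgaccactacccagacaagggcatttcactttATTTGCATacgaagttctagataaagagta
H2bc14 (Hist1h2bm), chr13:21721924-21722043, + strand: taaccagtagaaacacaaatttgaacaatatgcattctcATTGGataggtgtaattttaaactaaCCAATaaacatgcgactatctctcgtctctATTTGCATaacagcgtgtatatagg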
